A study of Mus musculus with 16 samples.

Results

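The comparison described here sets crypt cells with a high signal of the green Lgr5-EGFP stem cell reporter and a low red transgene signal in a BRAF(V600K) mouse line against cells of the same gate in a luciferase line. It used 5 of the 16 bead arrays of the study: 3 BRAF mice and 2 luciferase mice, 1 array per mouse, all different animals. Crypts came from the duodenum, were digested to single cells and were sorted by green and red fluorescence. The BRAF G group held cells with high green and low red signal from mice with the Lgr5-EGFP reporter and a doxycycline-inducible TdTomato-BRAF(V600K) fusion. The luciferase G group held cells of that gate from mice with the same reporter and an inducible TdTomato-luciferase fusion. All mice were of a mixed B6/129S6 background, were 8 to 12 weeks old and drank doxycycline (4 mg/ml in 1% sucrose) for 24 h, and the labels call the G cells of both lines transgene negative. The promoter that drove the transgenes and the sex of the mice are not given in the sources used here. Line and transgene cannot be told apart. Genes were taken from named probes above the array median on at least 2 of the 5 arrays, with the brightest probe for each gene, which gave 9005 genes of 16593 with a named probe.

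Lgr5 marks the cycling stem cells at the base of intestinal crypts, which give rise to absorptive enterocytes and to secretory Paneth, goblet, enteroendocrine and tuft cells. BRAF(V600K) is an oncogenic form of the BRAF kinase, which activates the MEK and ERK kinases inside the cell that holds it. Crypt cells also exchange signals such as EGF family ligands, Wnts and prostaglandins with their neighbours, so cells without an oncogene can lie next to cells that have one.

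Stem cell transcripts such as Olfm4 and Lgr5 were above background in both groups. Olfm4 averaged 12.35 ± 0.30 on the log2 intensity scale in BRAF G (SD, n = 3) and 12.21 ± 0.10 in luciferase G (SD, n = 2). It was nearly as high in the BRAF cells with neither colour, at 11.99 ± 0.16 (SD, n = 3). Ascl2, another stem cell transcript, was closer to background, at 7.64 ± 0.09 in BRAF G and 7.77 ± 0.02 in luciferase G. Lgr5 itself averaged 8.52 ± 0.65 in BRAF G and 8.81 ± 0.37 in luciferase G, against 7.82 ± 0.60 in the BRAF cells with neither colour (SD, n = 3), whose range overlapped with that of BRAF G. Leukocyte transcripts were near background: Ptprc, Cd3d, Cd3e and Cd3g lay at or below the array median (6.90, used here as the stand-in for background) on every G array except for 1 Ptprc probe on 1 array, and the 9 of 24 leukocyte genes with a probe that could be tested had mean levels of 7.17 to 7.19 in BRAF G and 7.18 to 7.27 in luciferase G. Arrays correlated at 0.970 to 0.978 among BRAF G, at 0.988 between the luciferase G pair and at 0.946 to 0.972 between the lines (Pearson, across genes, which are not independent replicates). BRAF mouse 1 stood apart in sex-linked transcripts. Xist, which silences an X chromosome in female cells, read 6.56 in BRAF mouse 1, 10.55 and 10.90 in BRAF mice 2 and 3, and 10.69 and 10.91 in luciferase mice 1 and 2. The Y-linked gene Eif2s3y read 9.74 in BRAF mouse 1, 6.34 and 6.22 in BRAF mice 2 and 3, and 6.20 and 6.19 in the luciferase mice. Kdm5d, also Y-linked, read 7.76 in BRAF mouse 1, 6.43 and 6.22 in BRAF mice 2 and 3, and 6.21 and 6.29 in the luciferase mice, while Uty, near background, read 7.68, 7.24 and 6.90 in BRAF mice 1 to 3 and 7.03 and 6.73 in the luciferase mice. By Xist, Eif2s3y and Kdm5d on the G arrays, BRAF mouse 1 had the pattern of male cells and the other 4 mice that of female cells. In the cells with both colours Xist read 8.42 in BRAF mouse 1 and 10.29 and 10.11 in BRAF mice 2 and 3. In those cells of luciferase mice 1 and 2 it read 11.32 and 10.77. Xist in BRAF mouse 1 was thus lowest in both gates but above the array median in the second, and the reason was not tested. Counts without BRAF mouse 1 stand beside those of the main fit and of the lists with more than 1 call.

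Between the lines, 24 of 9005 genes changed at an adjusted p under 0.05 (limma, 6 groups fitted together, Benjamini-Hochberg), or 0.267%. Of these, 10 were higher (0.111%) and 14 lower (0.155%) in BRAF G. All 24 had groups whose arrays did not overlap, which was true of 3464 of the genes tested (38.5%), 1753 of them higher in BRAF G (19.5%) and 1711 lower (19.0%). The 6-group fit takes its spread from all gates, and the median SD over genes was 0.258 there against 0.161 on the 5 G arrays. A fit of the 5 G arrays alone called 390 genes (4.33%), 120 higher (1.33%) and 270 lower (3.0%), and these included all 24. At an unadjusted p under 0.05 the 6-group fit had 798 genes (8.86%). With estimated array weights the 6-group fit called 1222 genes. Both counts moved with single mice. Without BRAF mouse 1, 2 or 3 the count of 24 became 8, 5 and 21, and without luciferase mouse 1 or 2 it became 1 and 3. The count of 390 became 171, 240 and 850 without BRAF mouse 1, 2 or 3 and 37 and 81 without luciferase mouse 1 or 2, and 30 genes passed in all 5 of these fits. BRAF mouse 3 was the BRAF array nearest the luciferase mean in 17 of the 24 genes and in 251 of the 390. In the 6-group fits without 1 mouse, S100a6 was called in 5 of 5, Fgf1 and Pdk4 in 4, C1ra and Ces2a in 3, and Gatm, Mycn and Rbp7 in 2. Fbp1, Gdpd3, Gm7334, Macrod1 and Syne4 were called in 0 of these fits, and the other 11 genes in 1.

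S100a6 was the gene with the highest difference. It encodes a small calcium-binding protein of the S100 family and is expressed in regenerating and fetal-like intestinal epithelium. Its log2 intensity was 10.75, 10.90 and 10.58 in BRAF G, against 7.35 and 7.40 in luciferase G. Every BRAF mouse lay more than 3 log2 units above either luciferase mouse. The difference was 3.37 ± 0.24 (SE), a 10.3-fold higher intensity, with an adjusted p of 2.38e-06 (limma). In the other gates of the BRAF line S100a6 read 12.59 ± 0.29 in the cells with both colours, 12.91 ± 0.29 in the cells with red only and 11.28 ± 0.26 in the cells with neither (SD, n = 3 each). It read 9.38 ± 0.40 in the luciferase cells with both colours (SD, n = 2), above luciferase G.

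S100a11, another calcium-binding S100 protein, rose as well. Its intensity was 11.71, 11.71 and 11.33 in BRAF G and 10.38 and 10.39 in luciferase G, with no overlap, a difference of 1.20 ± 0.22 (adjusted p = 0.0329, limma). Both genes lie on chromosome 3 of GRCm38.p6, S100a6 at chr3:90612894-90614414 and S100a11 at chr3:93520496-93526288, both on the plus strand. The 250 bases before each start site, from RefSeq on that build, are shown because these related genes rose together. They were searched for the motif of AP-1, the factor family of Fos and Jun, whose activity follows ERK signalling. Capitals mark matches to the AP-1 motif TGANTCA, which reads the same on both strands.
S100a6, chr3:90612644-90612893: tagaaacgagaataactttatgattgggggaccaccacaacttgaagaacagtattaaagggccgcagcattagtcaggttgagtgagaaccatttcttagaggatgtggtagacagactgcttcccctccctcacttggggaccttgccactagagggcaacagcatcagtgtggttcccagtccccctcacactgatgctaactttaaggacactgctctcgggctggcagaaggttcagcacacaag
S100a11, chr3:93520246-93520495: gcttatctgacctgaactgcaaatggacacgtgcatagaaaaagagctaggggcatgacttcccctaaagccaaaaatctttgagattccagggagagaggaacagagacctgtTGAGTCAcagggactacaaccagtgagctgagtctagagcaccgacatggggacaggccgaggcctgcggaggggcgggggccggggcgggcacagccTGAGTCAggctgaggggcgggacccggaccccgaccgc
The S100a11 stretch held 2 matches, beginning 136 and 38 bases before the start site, and the S100a6 stretch held 0. Of all 32851 promoter stretches of this length in the table, 6.75% held at least 1 match, and a match describes these letters only.

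The other 8 genes that rose were Mboat1, Ddah1, Psat1, Gm7334, Apobec2, Gpx2, Syne4 and Dynll1. Mboat1, an acyltransferase that rebuilds membrane phospholipids, had the next highest difference: 8.71, 9.46 and 8.32 in BRAF G against 6.51 and 6.63 in luciferase G. Both luciferase values lay under the array median, so the increase is given as at least 3.81-fold (fitted difference 2.26 ± 0.43, adjusted p = 0.0376, limma). Ddah1, which breaks down an inhibitor of nitric oxide synthase, read 8.96, 9.69 and 8.55 in BRAF G and 7.36 and 7.54 in luciferase G (1.62 ± 0.31, adjusted p = 0.0363, limma). BRAF mouse 2 was the highest and BRAF mouse 3 the lowest of the BRAF mice for both genes, and neither overlapped with the luciferase mice. Psat1, an enzyme of serine synthesis, read 10.50, 10.60 and 9.91 in BRAF G and 9.02 and 9.14 in luciferase G (1.26 ± 0.22, adjusted p = 0.0251, limma). Gpx2, the glutathione peroxidase of the gut epithelium, read 12.02, 12.19 and 11.78 in BRAF G and 10.94 and 10.93 in luciferase G (1.06 ± 0.18, adjusted p = 0.0230, limma). For both genes the lowest BRAF value lay above the highest luciferase value. Dynll1, a light chain of the dynein motor, rose by 1.03, and Gm7334, a predicted gene with no role stated here, by 1.19. Apobec2, of the cytidine deaminase family, rose at least 1.65-fold and Syne4, a protein of the outer nuclear membrane, at least 1.42-fold, both being under the array median in luciferase G.

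Car4, Fgf1 and Pdk4 had the most negative differences of the 14 genes that fell. Car4, a membrane-bound carbonic anhydrase of the absorptive surface, read 6.59, 6.71 and 7.41 in BRAF G against 10.10 and 9.65 in luciferase G (-2.97 ± 0.54, adjusted p = 0.0329, limma). Fgf1, a fibroblast growth factor, read 6.41, 6.93 and 6.85 in BRAF G against 9.60 and 9.53 in luciferase G (-2.84 ± 0.34, adjusted p = 0.00118, limma), at least 6.30-fold lower. A second Fgf1 probe differed by -1.53. Pdk4, a kinase that shuts off pyruvate dehydrogenase when fat is burned, read 6.62, 6.81 and 6.84 in BRAF G against 9.67 and 9.32 in luciferase G (-2.74 ± 0.33, adjusted p = 0.00118, limma), at least 6.03-fold lower. Groups were far apart for all 3 genes, and the single BRAF value above the others was Car4 in mouse 3.

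Gdpd3, Ces2a, Ces1e and Rbp7 also fell. Gdpd3, a lysophospholipase D, read 7.05, 6.87 and 6.85 in BRAF G and 9.0 and 8.85 in luciferase G (-2.0 ± 0.38, adjusted p = 0.0357, limma). Ces2a and Ces1e, carboxylesterases that cleave esters of lipids and drugs, fell by 1.83 and 1.82 on the log2 scale. For Ces2a the values were 7.56, 7.71 and 8.16 in BRAF G and 9.79 and 9.49 in luciferase G (adjusted p = 0.00565, limma). For Ces1e they were 7.07, 7.14 and 7.83 in BRAF G and 9.24 and 9.09 in luciferase G (adjusted p = 0.0107, limma). In these esterases BRAF mouse 3 again lay closest to the luciferase mice. Rbp7, a retinol-binding protein, read 9.21, 8.97 and 9.38 in BRAF G and 10.77 and 10.81 in luciferase G (-1.60 ± 0.24, adjusted p = 0.00886, limma), and its other probe differed by -1.52.

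C1ra, a protease of the complement cascade, read 6.83, 6.73 and 7.18 in BRAF G and 8.55 and 8.51 in luciferase G (-1.62 ± 0.20, adjusted p = 0.00177, limma). Mycn, a MYC family transcription factor, read 6.50, 6.53 and 6.55 in BRAF G and 8.0 and 7.65 in luciferase G (adjusted p = 0.00886, limma). All BRAF values of Mycn lay under the array median, so the decrease was at least 1.89-fold. Gatm, which catalyses the first step of creatine synthesis, fell at least 1.59-fold. Macrod1, an ADP-ribose hydrolase, fell by 1.11 on the log2 scale, and Ddit4, an inhibitor of the growth kinase complex mTORC1, by 1.10, with Ddit4 at 10.51, 10.57 and 10.93 in BRAF G and 11.82 and 11.72 in luciferase G. The smallest decreases were those of Zhx3, a zinc finger transcription factor, at -1.05, and Fbp1, a gluconeogenesis enzyme, at -0.89; both are named for completeness after their values were seen.

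**Figure D1:**
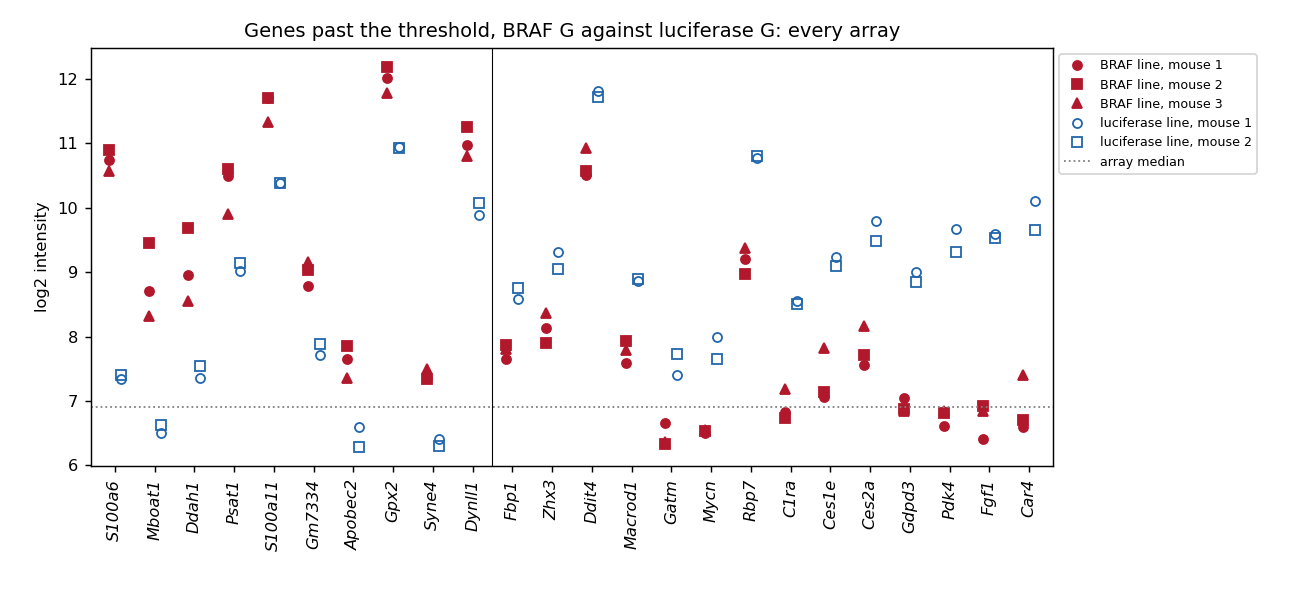
Log2 intensity (vertical axis) of the 24 genes past the adjusted p threshold on each G array, 1 point per mouse, BRAF line (filled) left of luciferase line (open) for each gene, with the 10 genes higher in BRAF G left of the black line and the 14 lower ones right of it, and the dotted line at the array median of 6.90. No gene has overlapping groups, and BRAF mouse 3 (triangle) is the BRAF mouse nearest the luciferase mean in 17 of the 24.

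Transcripts induced by ERK were examined because the transgene acts through that kinase, while the gate selected cells low in red signal. Of 22 such genes 16 could be tested, and 0 passed in the 6-group fit. In the fit of the 5 G arrays, 5 were higher (Phlda1, Dusp6, Dusp4, Etv4 and Etv5) and 0 lower, beside a background of 1.33% and 3.0%. The median difference of the 16 was 0.42, against 0.01 over all genes tested, with 15 of the 16 higher and 9 of them without overlap (19.5% of all genes). Genes such as Etv4 and Plaur passed the filter through BRAF G alone and so could only be higher there. Above the array median were 15, 15 and 16 of the 16 in BRAF mice 1 to 3, and 12 in each luciferase mouse. Their mean level was 8.71, 9.01 and 9.12 in BRAF mice 1 to 3 and 8.41 and 8.43 in the luciferase mice. The 5 calls became 5, 3 and 3 without BRAF mouse 1, 2 or 3 and 0 and 1 without luciferase mouse 1 or 2, while the median stayed between 0.33 and 0.50.

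Dusp6, a phosphatase that switches off ERK and whose transcript follows ERK activity, read 10.21, 11.26 and 11.30 in BRAF G and 9.65 and 9.71 in luciferase G. BRAF mouse 1 lay closer to the luciferase mice than to the other BRAF mice, and the groups did not overlap. The difference was 1.24 ± 0.35 (adjusted p = 0.220 in the 6-group fit and 0.0357 with the 5 arrays, limma), and further Dusp6 probes differed by 1.16 and 0.59. Phlda1, an adaptor protein induced by growth factor signals, read 9.05, 9.69 and 9.58 in BRAF G and 8.01 and 8.04 in luciferase G (1.42 ± 0.46, adjusted p = 0.308 and 0.00383 with the 5 arrays). Etv4 and Etv5, ETS transcription factors downstream of ERK, were 0.98 ± 0.28 and 0.86 ± 0.21 higher (adjusted p = 0.244 and 0.160, and 0.0335 and 0.00780 with the 5 arrays). Etv5 read 8.33, 8.49 and 8.55 in BRAF G and 7.61 and 7.59 in luciferase G, and Etv4 lay under the array median in both luciferase mice, so it was at least 1.45-fold higher. Spry4, a feedback inhibitor of receptor signalling, was near the array median and overlapped, at 6.64, 6.96 and 7.07 in BRAF G and 6.41 and 6.85 in luciferase G. Ccnd1, cyclin D1, differed by 0.42 ± 0.21, with its other probes at 0.21 and -0.02. The AP-1 gene Fosl1 lay under the array median on all 5 arrays, at 6.38, 6.48 and 6.55 in BRAF G and 6.31 and 6.27 in luciferase G, and was not tested.

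Immediate-early and EGF family genes gave a mixed picture. Of 14 tested, 0 passed in the 6-group fit. With the 5 arrays 0 were higher and 2 lower, beside 1.33% and 3.0% of all genes. The 2 lower calls became 2, 1 and 4 without BRAF mouse 1, 2 or 3 and 0 and 1 without luciferase mouse 1 or 2, and 1 member was called higher without BRAF mouse 1. Dusp1, a stress-induced phosphatase of MAP kinases, read 9.06, 8.58 and 8.94 in BRAF G and 10.13 and 9.73 in luciferase G (-1.07 ± 0.44, adjusted p = 0.475 and 0.0104 with the 5 arrays, limma), and Fosb, an AP-1 subunit, differed by -0.82 (adjusted p = 0.791 and 0.0293). Egr1, an early growth response factor counted with the ERK genes, read 12.79 in BRAF mouse 3 and 11.20 and 11.23 in BRAF mice 1 and 2, against 11.89 and 11.56 in luciferase mice 1 and 2. Hbegf, an EGF receptor ligand, read 7.84, 8.87 and 9.78 in BRAF G and 7.57 and 7.68 in luciferase G (1.21 ± 0.56, adjusted p = 0.552, limma), higher in all BRAF mice but with a spread of nearly 2 log2 units among them.

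The programme that crypts switch on after injury, with genes that answer to the YAP coactivator, had 11 tested members. S100a6 and S100a11 rose and 0 fell, beside a background of 0.111% and 0.155%. With the 5 arrays Anxa2, a membrane-binding annexin, passed as well, at 11.89, 12.37 and 12.00 in BRAF G and 11.32 and 11.24 in luciferase G (0.81 ± 0.24, adjusted p = 0.254 in the 6-group fit and 0.0268 with the 5 arrays). The median difference was 0.53 against 0.01 over all genes, with 10 of the 11 higher and 8 of these without overlap (19.5% of all genes). The annexin genes Anxa3 and Anxa10 passed the filter through BRAF G alone, which favours a higher value there. Above the array median were 10 of the 11 in each BRAF mouse and 9 in each luciferase mouse. Ankrd1, a YAP target, differed by 0.04 ± 0.20 and the keratin Krt19 by -0.06 ± 0.15, so the members did not move as one. Without BRAF mouse 1, 2 or 3 the 3 calls of the 5-array fit became 3, 2 and 4, and without luciferase mouse 1 or 2 they became 1 and 2. Cd44, a surface receptor that is also a Wnt target, differed by 0.53 ± 0.38, and its other probes by between -0.04 and 0.49. Anxa1 and Clu, markers of regenerating epithelium, were under the median on at least 4 of the 5 arrays and were not tested.

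**Figure D2:**
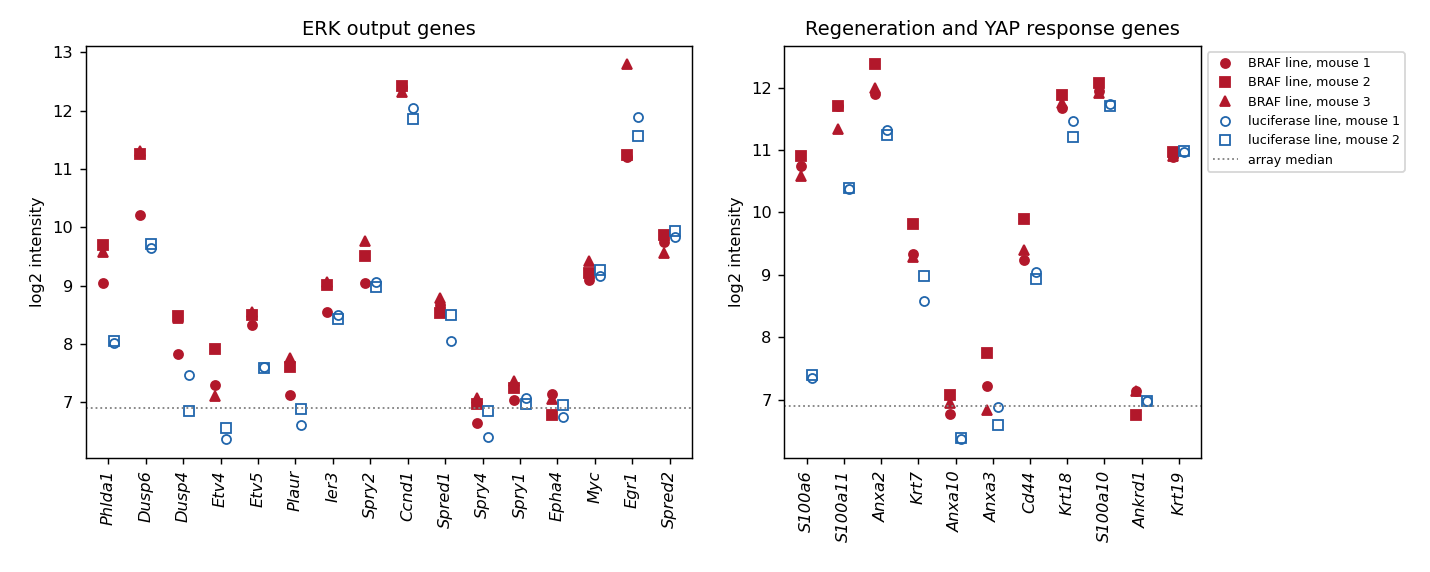
Log2 intensity (vertical axis) of the 16 tested ERK output genes (left) and the 11 tested regeneration and YAP response genes (right) in each mouse, BRAF line (filled) left of luciferase line (open), ordered by their difference, with the dotted line at the array median of 6.90. The groups do not overlap for the first 7 ERK genes, and S100a6 stands apart from the other regeneration genes.

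Transcripts of absorptive enterocytes were lower in BRAF G. Of 22 tested genes, 20 were lower and 15 of these had no overlap (19.0% of all genes), with a median difference of -0.68 against 0.01 over all genes. The members Ace and Clec2h passed the filter only with the luciferase arrays, which favours a lower value in BRAF G. Above the array median were 19, 19 and 22 of the 22 in BRAF mice 1 to 3, and 22 in each luciferase mouse. None passed in the 6-group fit, while 10 passed with the 5 arrays, all lower, beside a background of 3.0%. Sucrase-isomaltase (Sis), the brush border enzyme that splits sucrose, read 8.46, 7.97 and 8.95 in BRAF G and 10.50 and 10.86 in luciferase G (-2.22 ± 0.61, adjusted p = 0.213 and 0.00169 with the 5 arrays, limma). Enpep, a brush border aminopeptidase, read 7.18, 7.02 and 7.74 in BRAF G and 9.64 and 9.72 in luciferase G (-2.37 ± 0.72, adjusted p = 0.267 and 0.000299 with the 5 arrays). Both were at least 1.5 log2 units lower in every BRAF mouse than in either luciferase mouse. Slc40a1, the iron exporter ferroportin, and Treh, the trehalose-splitting enzyme of the brush border, differed by -1.39 and -1.14, and the sodium-glucose transporter Slc5a1 by -0.91. The other passing members were Fabp1, Fabp2, Rbp2, Slc2a2 and Dgat1, at -0.97 to -0.66. Krt20 and Apoa4, late markers of villus cells, were the 2 members not lower, with differences of 0.14 and 0.49. The 10 calls became 4, 5 and 14 without BRAF mouse 1, 2 or 3 and 2 and 3 without luciferase mouse 1 or 2, with medians between -0.78 and -0.62. In sorted populations such as these, fewer cells of a type and less RNA per cell cannot be told apart.

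The genes of fatty acid oxidation and of the PPAR lipid sensors moved in the same direction. Of 47 genes listed, with earlier results of these data known, 36 could be tested. All 36 were lower in BRAF G, 28 of them without overlap (background 19.0%), and the median was -0.48. Genes such as Pdk4 and Cd36 passed the filter through luciferase G alone and so could only be lower in BRAF G. Above the array median were 30, 31 and 32 of the 36 in BRAF mice 1 to 3, and 36 and 35 in the luciferase mice. Pdk4 fell, beside 0.155% of all genes called lower. With the 5 arrays 10 members passed and 0 were higher, beside 3.0% of all genes called lower and 1.33% higher. Cd36, a fatty acid transporter, read 6.52, 6.29 and 6.86 in BRAF G and 8.02 and 7.51 in luciferase G (adjusted p = 0.196 and 0.00941 with the 5 arrays, limma), at least 1.81-fold lower since all BRAF values lay under the array median. Txnip, an inhibitor of thioredoxin and of glucose uptake, read 9.47, 9.42 and 8.98 in BRAF G and 10.37 and 10.28 in luciferase G (-1.04 ± 0.25, adjusted p = 0.151 and 0.00844). For both genes the highest BRAF value lay under the lowest luciferase value. Cpt1a, which brings fatty acids into mitochondria, differed by -0.68 ± 0.23, and the beta-oxidation enzymes Acadvl, Acaa2, Ehhadh and Eci1 by between -0.71 and -0.64. The fatty acid binding proteins Fabp1 and Fabp2 belong to both this list and the enterocyte list. The mean level of the 36 genes was 8.56, 8.63 and 8.73 in BRAF mice 1 to 3 and 9.28 and 9.15 in the luciferase mice. The 10 calls became 2, 3 and 14 without BRAF mouse 1, 2 or 3 and 1 and 2 without luciferase mouse 1 or 2, and at least 35 of the 36 stayed lower. By contrast, the 40 tested genes of the mitochondrial respiratory chain had a median of -0.11, and 0 passed in either fit; the subunit genes Ndufv1 and Sdhb were lower by the largest amounts, at -0.46 ± 0.17 and -0.40 ± 0.23.

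**Figure D3:**
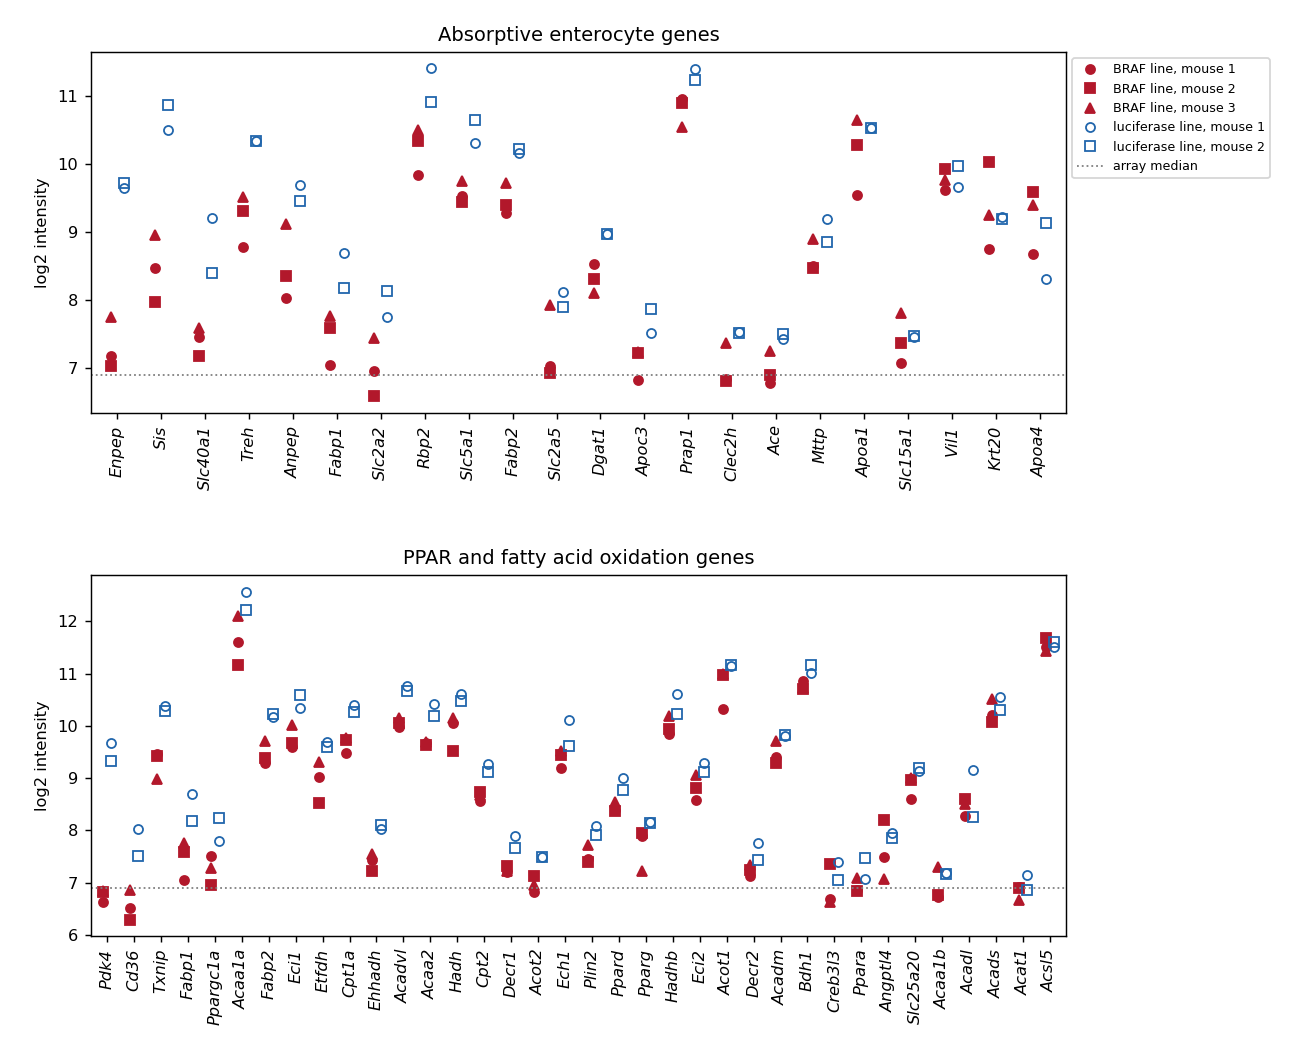
Log2 intensity (vertical axis) of the 22 tested absorptive enterocyte genes (top) and the 36 tested PPAR and fatty acid oxidation genes (bottom) in each mouse, BRAF line (filled) left of luciferase line (open), ordered from the most negative difference, with the dotted line at the array median of 6.90. Most genes have both luciferase mice above all BRAF mice, namely 15 of the 22 and 28 of the 36.

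Genes of lipid synthesis lay on the other side of zero. Of 22 tested genes of cholesterol and fatty acid synthesis, 19 were higher in BRAF G and 13 of these did not overlap (background 19.5%), with a median of 0.48. The member Mvd passed the filter through BRAF G alone and so could only be higher there. None passed in the 6-group fit and 4 were called higher with the 5 arrays, beside 1.33% of all genes. Sqle, squalene epoxidase, read 10.18, 10.11 and 9.99 in BRAF G and 9.12 in both luciferase mice (0.97 ± 0.24, adjusted p = 0.160 and 0.00488 with the 5 arrays, limma); another probe differed by 0.65. Scd2, a fatty acid desaturase, read 8.75, 8.07 and 7.83 in BRAF G and 6.96 and 7.13 in luciferase G (1.17 ± 0.39, adjusted p = 0.326 and 0.0229). The isoprenoid enzymes Fdps and Idi1 differed by 0.87 and 0.61. Without luciferase mouse 1 or 2 these 4 calls became 0, and without BRAF mouse 1, 2 or 3 they became 2, 3 and 10. Of 14 glycolysis genes 0 passed in the 6-group fit. With the 5 arrays 1 was called, the glucose transporter Slc2a1, beside 1.33% of all genes called higher. Slc2a1 read 10.23, 10.39 and 10.23 in BRAF G and 9.73 and 9.39 in luciferase G. The phosphofructokinase Pfkm differed by -0.53 ± 0.30, with other probes at 0.17 and -0.19. Without either luciferase mouse, or BRAF mouse 1 or 2, 0 glycolysis genes were called with the remaining arrays.

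Among 17 genes of serine and one-carbon synthesis and its amino acid stress response, Psat1 rose and Ddit4 fell, beside 0.111% and 0.155% of all genes. Both are described above, and the list median was 0.16. The 5-array fit also called these 1 higher and 1 lower member, with 0 and 1 called without BRAF mouse 1 and 0 and 0 without either luciferase mouse. In the glutathione and NRF2 list of 25 genes Gpx2 rose, and the 5-array fit added 6 lower members and no higher one, beside 3.0% and 1.33% of all genes. These were the glutathione transferases Gsta1, Gstm2, Gstm3 and Gstm6, the esterase Ces1g and Aldh1a1, a retinaldehyde dehydrogenase. Ces1g and Aldh1a1 passed the filter only with the luciferase arrays, which favours a lower value in BRAF G. Aldh1a1 read 6.79, 6.73 and 7.06 in BRAF G and 8.40 and 8.64 in luciferase G (adjusted p = 0.280 and 0.000745 with the 5 arrays, limma), at least 2.95-fold lower. Gstm3 read 9.22, 8.79 and 9.40 in BRAF G and 10.65 and 10.44 in luciferase G. The detoxifying enzymes thus went both ways, with a list median of -0.08. The 6 lower calls became 2, 5 and 6 without BRAF mouse 1, 2 or 3 and 1 and 2 without luciferase mouse 1 or 2.

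Genes that respond to glucocorticoids and nutrients were lower in 12 of 14 tested. Pdk4 passed the filter through luciferase G alone and so could only be lower. Pdk4 and Ddit4 fell, and Sgk1, Pck1 and Tsc22d3 were added by the 5-array fit, beside 0.155% of all genes lower in the 6-group fit and 3.0% with the 5 arrays. Sgk1, a kinase induced by glucocorticoids, read 8.10, 8.73 and 7.74 in BRAF G and 9.64 and 9.89 in luciferase G (-1.57 ± 0.38, adjusted p = 0.154 and 0.00663 with the 5 arrays, limma), so every BRAF mouse was lower. Pck1, an enzyme of gluconeogenesis, read 7.87, 8.41 and 9.19 in BRAF G and 9.71 and 9.83 in luciferase G, with BRAF mouse 3 nearest. The 5 lower calls became 3, 4 and 5 without BRAF mouse 1, 2 or 3 and 1 and 1 without luciferase mouse 1 or 2. In the circadian clock list of 12 genes 0 passed in the 6-group fit. The repressor Nfil3 was 1.02 log2 units lower (adjusted p = 0.189 and 0.0176 with the 5 arrays, limma), and Usp2, a clock-linked protease, differed by -0.68 ± 0.27. Nfil3 was the 1 clock gene called with the 5 arrays, beside 3.0% of all genes called lower. Without luciferase mouse 1 the 5-array fit called 0 clock genes. The time of day of each dissection is not given in the sources used here.

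Stem cell, Wnt and cell cycle genes stayed near the all-gene median. Of 21 tested stem cell genes 0 passed in either fit, with a median of 0.09. Lgr5 read 8.43, 7.93 and 9.22 in BRAF G and 9.07 and 8.55 in luciferase G (-0.29 ± 0.36, adjusted p = 0.923, limma), and its sign turned without BRAF mouse 2 (0.01). Olfm4 differed by 0.15 ± 0.21 and by -0.03 without BRAF mouse 3, and Ascl2, a transcription factor of stem cells, by -0.13 ± 0.20. The members with the largest differences were Igfbp4, an IGF-binding protein, at 0.72 ± 0.37 (other probe 0.54), and Gkn3, at -0.58 ± 0.63. Smoc2 had no probe. Of 10 Wnt targets 0 passed in either fit and the median was -0.01. Of 32 cell cycle genes 0 passed in either fit and the median was 0.09, with Mcm2, a replication helicase subunit, at 0.48 ± 0.21 and Nusap1, a spindle protein, at -0.76 ± 0.23.

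Of 15 tested genes that p53 induces or that block cyclin-dependent kinases, 0 passed in the 6-group fit. Cdkn1a, the p53 target p21, read 7.61, 8.40 and 8.09 in BRAF G and 7.78 and 7.87 in luciferase G, an overlap. Cdkn2b, the CDK inhibitor p15, read 6.80, 6.82 and 7.50 in BRAF G and 8.26 and 8.22 in luciferase G (-1.20 ± 0.34, adjusted p = 0.225 and 0.0104 with the 5 arrays, limma). It passed the filter only with the luciferase arrays. With the 5 arrays 3 members were called lower and 1 higher, beside 3.0% and 1.33% of all genes. Besides Cdkn2b these were Cdkn2c and Sesn1, lower at -0.68 and -0.71, and Cdkn1c, higher at 0.76. The inhibitors thus did not share a direction. The 3 lower calls became 1, 2 and 3 without BRAF mouse 1, 2 or 3, and without either luciferase mouse 0 members were called in either direction.

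Goblet, tuft and enteroendocrine genes had medians within 0.3 log2 units of zero. Goblet cell genes had a median of 0.29 over 16 tested, with Agr2, a mucin-folding enzyme, at 10.48, 11.13 and 10.96 in BRAF G and 9.87 and 10.12 in luciferase G (0.86 ± 0.30, adjusted p = 0.364 and 0.0355 with the 5 arrays, limma), and Guca2a, guanylin, at 0.67 ± 0.30. Over 15 tuft cell genes the median was 0.04, with Trpm5 and Rgs13 both at 0.28, and 0 passed in either fit. Enteroendocrine genes had a median of 0.11 over 20 tested, and of -0.10 without BRAF mouse 2. Sct, the gene of the hormone secretin, passed with the 5 arrays, at 10.95, 11.23 and 10.93 in BRAF G and 10.40 and 10.39 in luciferase G (0.64 ± 0.28, adjusted p = 0.526 and 0.0399). The hormone gene Tac1 differed by 0.72 ± 0.44, and the granule protein gene Chga read 7.44, 8.94 and 9.64 in BRAF G and 10.19 and 9.56 in luciferase G. With the 5 arrays Agr2 was the 1 of 16 goblet genes called, and Sct the 1 of 20 enteroendocrine genes. Both were higher, beside 1.33% of all genes. Without luciferase mouse 1 or 2, the 5-array fit called 0 goblet and 0 enteroendocrine genes.

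Paneth cell genes had the lowest median of the lists, -0.99 over 16 tested, with 14 lower in BRAF G. The member Habp2 passed the filter through luciferase G alone and so could only be lower, and Nupr1 and Reg3a passed only with the luciferase arrays. Above the array median were 14, 14 and 13 of the 16 in BRAF mice 1 to 3, and 16 in each luciferase mouse. None passed in the 6-group fit. With the 5 arrays 1 passed, the lectin gene Reg3a, beside 3.0% of all genes called lower. Reg3a read 7.22, 6.82 and 6.72 in BRAF G and 8.23 and 8.40 in luciferase G (-1.40 ± 0.36, adjusted p = 0.167 and 0.00290 with the 5 arrays, limma). Much of the list's shift lay in 1 mouse. The mean level of the 16 genes was 8.60 in BRAF mouse 1, 9.96 and 9.61 in BRAF mice 2 and 3, and 10.21 and 10.04 in the luciferase mice, and the median became -0.36 without BRAF mouse 1. Itln1, an intelectin of Paneth cells, read 10.97, 12.67 and 12.76 in BRAF G and 13.44 and 13.40 in luciferase G, and the antimicrobial peptide gene Defa20 read 10.20, 13.19 and 12.35 in BRAF G and 13.00 and 13.16 in luciferase G. BRAF mouse 1 is also the mouse with the low Xist value; the part of either in the results was not tested.

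Stress and immune lists were small in their differences. Heat shock genes, which also respond to cell dissociation, had a median of 0.25 over 12 tested, led by the chaperone gene Hsph1 at 0.62 ± 0.39 and Chordc1 at 0.50 ± 0.18, and 0 passed in either fit. In the ER stress list of 20 genes, Creld2 differed by 0.79 ± 0.26 and Sel1l, of the degradation machinery, by -0.59 ± 0.20. Psmb9, an immunoproteasome subunit, was the 1 of 29 interferon and antigen presentation genes that passed with the 5 arrays, at 9.58, 9.47 and 9.79 in BRAF G and 10.67 and 10.61 in luciferase G (-1.03 ± 0.33, adjusted p = 0.310 and 0.00514, limma); Oasl2 differed by -0.75 ± 0.38. Leukocyte genes had a median of -0.05 over 9 tested, with Cd74 at 0.56 ± 0.45 and Cytip at least 1.19-fold lower (adjusted p = 0.768, limma), and of 22 genes of stroma, muscle and endothelium only 3 were bright enough to test, among them Cd34 at 0.28 ± 0.35 and Pecam1, whose means lay under the array median in both groups. Of 10 Brunner gland and gastric genes, 2 were tested: Dmbt1 at -0.87 ± 0.33 (adjusted p = 0.435 and 0.0251 with the 5 arrays, limma) and Cela1 at -0.31 ± 0.21. Creld2, Psmb9 and Dmbt1 were each the 1 member of their list called with the 5 arrays. Creld2 was higher, beside 1.33% of all genes, and Psmb9 and Dmbt1 were lower, beside 3.0%. The lists of Creld2, Psmb9 and Dmbt1 had 0 calls in the 5-array fit without either luciferase mouse.

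**Figure D4:**
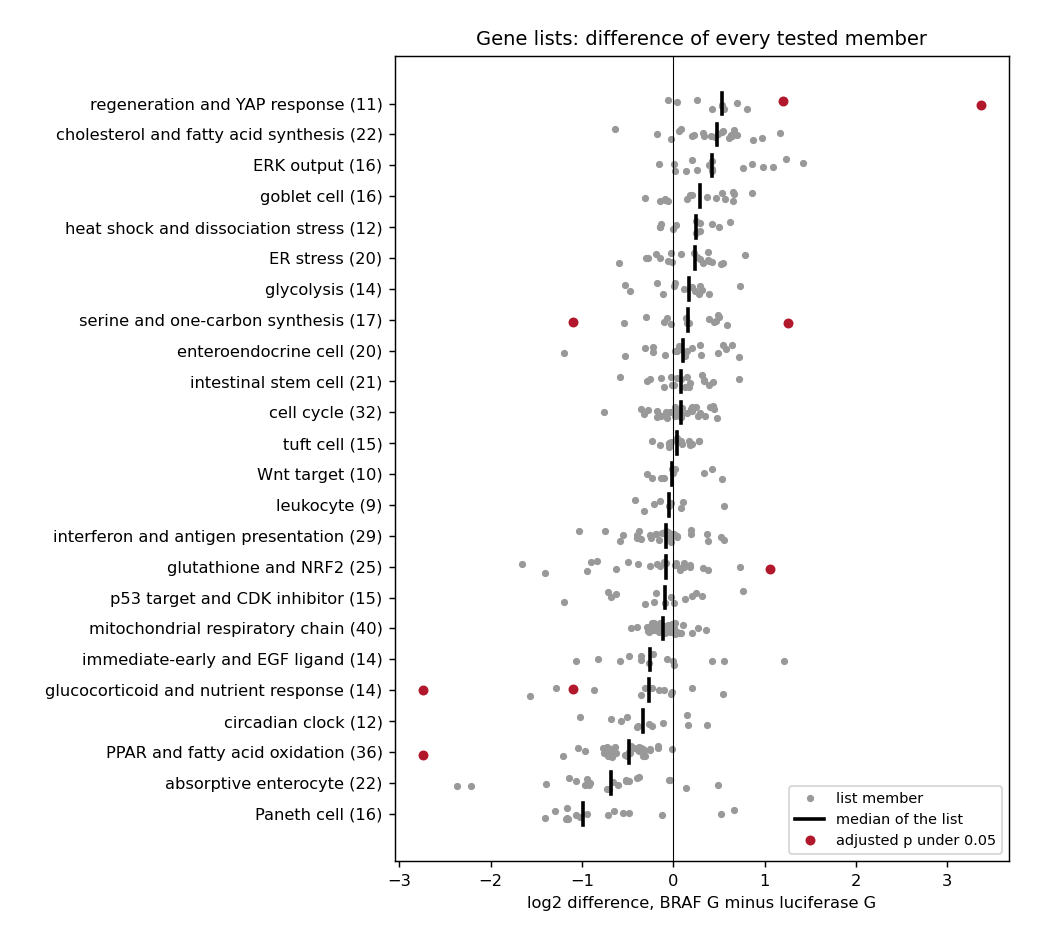
Log2 difference (BRAF G minus luciferase G, horizontal axis) of every tested member of the gene lists with at least 5 tested members, except the sex-linked list. The number tested is in brackets, with list medians as black bars and genes past the adjusted p threshold in red. Medians run from -0.99 (Paneth cell) to 0.53 (regeneration and YAP response), against 0.01 over all genes tested.

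The same line difference was measured in the RG gate, where Lgr5-EGFP-high cells did show red signal. Those 5 arrays (BRAF RG, n = 3; luciferase RG, n = 2) came from the same mice as the G arrays but from other cells. There 1676 of 9005 genes were called (18.6%), 1020 higher (11.3%) and 656 lower (7.28%), and 553 with array weights. All 24 genes called in G had the same sign in RG and 18 were called, 9 of the 10 higher and 9 of the 14 lower. S100a6 differed by 3.22 ± 0.24 in RG (adjusted p = 4.57e-06) and by 3.37 ± 0.24 in G. Mboat1, Ddah1 and S100a11 had larger estimates in RG (3.70, 3.24 and 2.24) than in G (2.26, 1.62 and 1.20). Syne4, Gatm, Mycn, Rbp7, C1ra and Ces2a were not called in RG; Rbp7, for example, was at -0.26 in RG and -1.60 in G, and Ces2a at -0.44 and -1.83. The difference between the gates was tested by an interaction contrast, which called 36 of 9005 genes (0.4%) and 0 of the 24 (lowest adjusted p 0.0839, for Rbp7, limma). That fit did not pair the 2 gates of a mouse, and with mouse as a random block the contrast called 241 genes. The 0 of the 24 belongs to the unpaired fit. Of the 390 genes called with the 5 G arrays, 159 were called in RG with the same sign, 62 higher and 97 lower.

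Some gene lists had different counts in the 2 gates. Over all genes 11.3% were called higher and 7.28% lower in RG, against 0.111% and 0.155% in G. Counts of calls are therefore not directly comparable between the gates. Cell cycle genes had 0 calls in G and 20 higher in RG, with medians of 0.09 and 0.76. Goblet cell genes had 0 calls in G and 14 lower in RG (medians 0.29 and -1.38), and enteroendocrine genes had 0 calls in G and 14 lower in RG (0.11 and -1.30). Members for which the interaction contrast passed were 4 of 16 goblet, 0 of 20 enteroendocrine and 1 of 32 cell cycle genes, beside 0.4% of all genes. These counts also belong to the unpaired fit, and the members that pass with mouse as a random block are not given here. PPAR and fatty acid oxidation genes had close medians in the 2 gates, -0.48 in G and -0.40 in RG. In RG 9 of them were called lower and 0 higher, but the members were not all lower there. Angptl4, Acot1, Pparg and Acadl were among those on the other side, at 0.88, 0.49, 0.45 and 0.44 in RG. Among the ERK genes 8 were called higher in RG (median 0.81), and 4 of the 16 were not higher there. Etv5 was the 1 ERK gene for which the interaction contrast passed, at 0.86 ± 0.21 in G and -0.63 in RG (adjusted p = 0.160 and 0.0517, neither past the threshold), a gate difference of -1.49 ± 0.30 (adjusted p = 0.0470, limma interaction contrast).

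**Figure D5:**
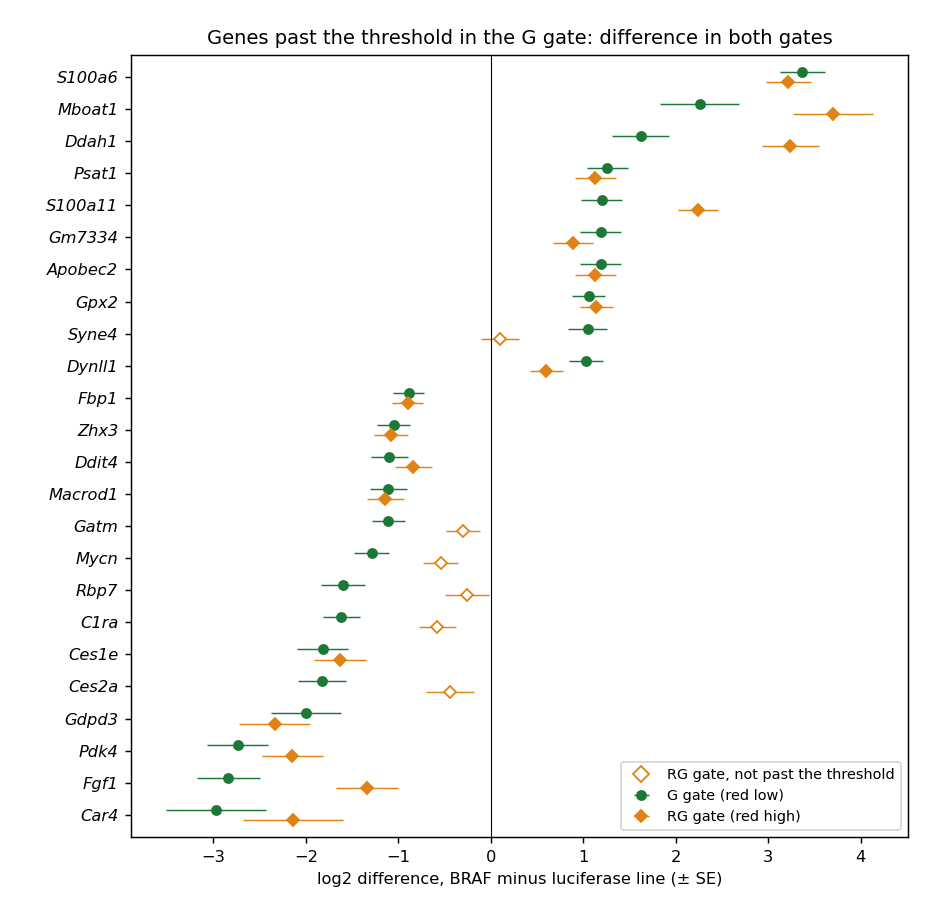
Log2 difference with its SE (BRAF minus luciferase line, horizontal axis) of the 24 genes called in the G gate (circles) and in the RG gate (diamonds, open where not past the threshold in RG), ordered by the difference in G. All 24 lie on the same side of zero in both gates, and 18 pass in RG.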

How the data were processed

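Expression was read from Illumina bead arrays. The authors deposited linear intensity values; GenomeStudio is named per the submitters' processing notes, and the normalization is not given in the sources used here. In the deposited table the sorted values of the 16 arrays agreed to within 1.2 and the lowest was 55.7, so the intensities look quantile-normalized with background included, and fold changes of dim genes are understated. Array medians of the 5 G arrays were 119.4 to 119.7, and the number of arrays limits the precision. A table of non-normalized signals, with 32 columns of per-sample values whose names match no label, was not used. Probes were named through the platform annotation (23978 of 25697 with 1 symbol, 0 with several, 1719 with none; 23962 matched to GRCm38.p6 by Entrez identifier).

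The log2 of the deposited intensities was fitted with limma 3.58.1 in R 4.3.3 (lmFit, eBayes) in 6 groups of arrays (BRAF G, RG, R and NEG; luciferase G and RG), with 10 residual and 5.42 prior degrees of freedom, two-sided, adjusted by the Benjamini-Hochberg method over 9005 genes. The filter kept 12705 named probes, and 2500 genes had more than 1. A group mean at or under the array median gives only a bound ("at least N-fold"), taken against the array median or, where it was higher on an array, the signal there. The fit was also run on simulated data, and the outcome is not reported here. Alternatives were the 5 G arrays alone (3 residual degrees of freedom), array weights, mouse as a random block, a replicate block, other filters, the mean of a gene's probes, background subtraction, centring, leaving out each G array and, chosen after seeing the data, the 10 arrays of the G and RG gates.

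The members and gene lists were chosen with earlier results of these data known. The named genes were the called genes of largest difference, up to 12 in each direction, in each list up to 4 called members (or, with none called, the 2 of largest difference), and 13 fixed genes; other genes were named after their values were seen. The numbers of the mice do not pair the lines: the labels give different mice. Smoc2, Ddx3y and Braf had no probe and are not analysed here.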

Additional observations from a re-analysis of the deposited data

Results flagged for a closer look

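The line difference (BRAF minus luciferase) differed between the RG and the G gate in 36 genes of 9005 (0.4%) by the unpaired interaction contrast (limma, adjusted p under 0.05). In the goblet cell list these were Gfi1 (a gate difference of -2.24), Zg16 (-2.13), Spink4 (-1.69) and Atoh1 (-1.67), each lower in RG and not called in G. Tns4 had the largest positive gate difference, 3.33, at -0.15 in G and 3.18 in RG.

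Etv5 differed between the lines by 0.86 in G and by -0.63 in RG, neither past the threshold on its own (adjusted p = 0.160 and 0.0517), a gate difference of -1.49 (adjusted p = 0.0470). Mcm2 had a difference of 0.48 in G and 1.99 in RG, a gate difference of 1.51 (adjusted p = 0.0401).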

How the results depend on the processing

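None of the 22 called genes under the naming rule turned sign in the alternatives run, but the number of calls depended on the spread used. Against 24 calls, the 5 G arrays alone gave 390, array weights 1222, the replicate block 1332 (1 residual degree of freedom, BRAF mouse 3 alone in its block) and the filter on all 5 G arrays 14; leaving out each G array gave 1 to 21. With the 5 arrays alone, leaving out each gave 37 to 850. The BRAF RG against luciferase RG count was 1676 and became 553 with array weights. The gate interaction gave 36, and 241 with mouse as a random block and 95 with the 10 arrays. No filter gave 16 calls, background subtraction 21, the mean of probes 26, and centring and the mouse block 24 each. Of 73 named genes, 18 not called in the 6-group fit were called with the 5 arrays, and 3, none called, turned sign: Olfm4 (-0.03 with the replicate block, and -0.03, without BRAF mouse 3, to 0.25 when leaving out each array), Lgr5 (-0.64 to 0.01, positive only without BRAF mouse 2) and Cd34 (-0.07, without luciferase mouse 2, to 0.62). Deviations of same-numbered mice correlated at -0.02 (mouse 1) and 0.137 (mouse 2), and the numbers name different mice. The cause of these changes was not tested. Genes near the array median are limited by background.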

Other observations

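Gene families below were looked at after their values were seen. All 7 tested carboxylesterase genes, which lie on chromosome 8 of the mouse, were lower in BRAF G with no overlap (19.0% of all genes). Ces2a was lower by the most, at -1.83. The genes do not form 1 cluster: Ces1e lies at chr8:93201218-93229631 and Ces2a at chr8:104734003-104741634. Ces1f and Ces1g had means under the array median in BRAF G, at 6.78 and 6.66, against 8.36 and 7.55 in luciferase G. Ces1g was at least 1.56-fold lower. It passed the filter only with the luciferase arrays, so the count of 7 lower rests in part on the filter. Of the 7, 2 were called in the 6-group fit and 7 with the 5 arrays, against 0.155% and 3.0% of all genes called lower. Reg1, a secreted lectin of the regenerating family, had the lowest difference of all genes tested: 7.62 ± 0.41 in BRAF G (SD, n = 3) and 10.72 ± 0.42 in luciferase G (SD, n = 2), -3.11 ± 0.66, adjusted p = 0.0743 in the 6-group fit and 0.000176 with the 5 arrays (limma). In RG it differed by -3.61 (adjusted p = 0.00256). Its relatives were spread, with Reg3a at -1.40, Reg4 at -0.72, Reg3b at -0.12 and Reg3g at 0.52.

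Of 7 tested S100a genes on chromosome 3, S100a6 and S100a11 were called, beside 0.111% of all genes called higher. S100a14 differed by 1.01 and S100a10 by 0.26, both without overlap (19.5% of all genes). S100a13 (-0.01) and S100a1 (-0.35) did not separate the lines. Of 9 annexins 0 were called in the 6-group fit and Anxa2 passed with the 5 arrays, beside 1.33% of all genes called higher. The share of genes called with the 5 arrays ran from 2.76% on chromosome 1 to 7.17% on chromosome 19.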
